A study of Mus musculus with 3 samples.

Results

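Tnfsf11, Tnfrsf11a, Tnfrsf11b, Csf1, Csf1r and Il34 were followed through the cell populations of juvenile mouse long bone. They are 6 of the 55422 genes in the deposited count matrices and were chosen by symbol, each matching 1 row. All 3 droplet single cell RNA libraries came from untreated C57BL/6 mice at post natal week 3. For metaphyseal replicates 1 and 2, cells of wild-type femur and tibia metaphyses were released with collagenase and depleted of haematopoietic lineage, CD45+ and CD117+ cells. The Pdgfra-GFP library holds GFP+ cells sorted from the metaphysis and epiphysis of heterozygous reporter mice. In these mice a nuclear H2B-GFP is expressed from the Pdgfra locus, and the sort selects by reporter protein, not by Pdgfra transcript. How many mice were pooled is not given in the sources used here, and the 2 metaphyseal replicates may differ only technically. The p-values below therefore measure spread over these libraries and may not cover that between mice. For fold changes it is the spread left once differences between whole libraries are removed. For each gene, 1 estimate of this spread is shared by all populations, also those not compared.

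Bone resorbing osteoclasts form from cells of the monocyte lineage, and stromal cells supply the signals. Tnfsf11 encodes RANKL, the membrane bound or shed ligand that drives osteoclast formation through its receptor RANK, the product of Tnfrsf11a. Tnfrsf11b encodes osteoprotegerin (OPG), a secreted decoy receptor that binds RANKL and keeps it from RANK. Csf1 encodes macrophage colony-stimulating factor and Il34 encodes interleukin-34, the ligands of the receptor tyrosine kinase CSF1R, which macrophages and osteoclast precursors need for survival and growth. The balance of RANKL and OPG is a textbook measure of the pro-resorptive state of bone stroma.

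Cells were assigned to populations by marker genes that include none of these 6 genes. SC stands for cells like septoclasts, the mononuclear cells of mesenchymal origin at the chondro-osseous border, mpMSC and dpMSC for cells like metaphyseal and diaphyseal mesenchymal stromal cells, OB for cells like osteoblasts and EC for cells like endothelial cells. Other names likewise mean cells like the type named, and these gates can differ from the clusters of the study. Of 15719 cells, 211 passed the SC gate, 1444 the mpMSC gate, 5701 the dpMSC gate, 2152 the OB gate, 1753 the chondrocyte gate and 2322 the EC gate. Only 11, 13 and 187 SCs came from the 3 libraries. This and every later set of 3 values gives metaphyseal replicate 1, then replicate 2, then Pdgfra-GFP. Mmp9, a marker of SCs that was not used in the gate, stood at 12008 CPM (the usual CPM scale, UMIs or unique molecules of a gene relative to all UMIs of the summed cells) in SCs and at 131 CPM in mpMSCs. Although both metaphyseal libraries are labelled as mesenchymal stromal cells, 47.0% and 44.4% of their cells were ECs. The GFP+ sort still held 308 ECs and 407 haematopoietic cells. Libraries held 22082735 to 91747759 UMIs, cells had median depths of 5354 to 6458 UMIs, and 19 cell barcodes were shared between libraries.

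In the Gencode annotation of mouse genome build GRCm38 (mm10), all 6 are protein coding genes. Tnfsf11 lies on the minus strand of chromosome 14 from 78277445 to 78308043, and Tnfrsf11b on the minus strand of chromosome 15 from 54250619 to 54278484. Tnfrsf11a lies on the plus strand of chromosome 1 from 105780718 to 105847981. Csf1 lies on the minus strand of chromosome 3 from 107741048 to 107760469 and Il34 on the minus strand of chromosome 8 from 110741829 to 110805924. Promoter sequences from RefSeq (GRCm38.p6), 250 bases before to 50 bases after the start, were given for 3 of the 6, namely Tnfsf11, Csf1 and Tnfrsf11a. The promoters of Tnfsf11 (chr14:78307994-78308293, minus strand) and Csf1 (chr3:107760420-107760719, minus strand) are shown because both genes were high in dpMSCs, mpMSCs and SCs and low in OBs and chondrocytes. They are written 5′ to 3′, and capitals mark matches, on either strand, to the TATA box core TATAA, the CAAT box (letters CCAAT), the RUNX core motif (letters TGTGGT) or the AP-1 motif (letters TGANTCA).
Tnfsf11: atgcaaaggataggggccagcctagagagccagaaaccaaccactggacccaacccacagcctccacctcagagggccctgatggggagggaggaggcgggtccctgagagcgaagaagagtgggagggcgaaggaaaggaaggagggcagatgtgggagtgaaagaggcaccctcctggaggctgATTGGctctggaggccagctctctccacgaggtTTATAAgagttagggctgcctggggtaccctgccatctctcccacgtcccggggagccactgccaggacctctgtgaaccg
Csf1: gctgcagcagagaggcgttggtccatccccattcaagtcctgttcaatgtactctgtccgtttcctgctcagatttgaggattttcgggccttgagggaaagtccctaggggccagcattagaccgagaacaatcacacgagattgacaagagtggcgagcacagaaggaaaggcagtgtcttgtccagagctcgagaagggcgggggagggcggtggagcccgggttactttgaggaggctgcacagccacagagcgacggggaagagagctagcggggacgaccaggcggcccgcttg
In the Tnfsf11 promoter, TATAA begins 30 bases before the start, overlapping its match on the other strand by all but 1 base, and CCAAT is read on the other strand 64 bases before the start. The Csf1 promoter held none of these letters in this window. Of 32851 promoters of the same length, 24.9% held TATAA, 37.4% CCAAT, 16.8% TGTGGT and 7.81% TGANTCA.

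Tnfsf11, encoding RANKL, was carried by the mesenchymal stromal populations and SCs, and was low in OBs and ECs. It reached 223.5, 265 and 133 CPM in SCs, from 26, 35 and 203 UMIs. In dpMSCs the values were 189, 188 and 124.5 CPM. The mpMSCs held 66.6, 75.1 and 93.5 CPM. All SC and dpMSC values lay above all mpMSC values, while SC and dpMSC values overlapped. With their spread over 3 libraries, the levels ran from 207 ± 67.5 CPM in SCs (SD, n = 3) to 167 ± 36.8 in dpMSCs, 78.4 ± 13.7 in mpMSCs, 16.5 ± 14.9 in chondrocytes, 3.44 ± 1.35 in OBs and 1.03 ± 0.710 in ECs. SCs and dpMSCs, the neighbours at the top of this order, had overlapping values and were not tested against each other. The low EC values set an upper limit to the background of free RNA in ECs. A Tnfsf11 UMI was found in 63.6%, 76.9% and 54.5% of SCs, 55.3%, 56.6% and 34.3% of dpMSCs, 39.2%, 47.6% and 37.7% of mpMSCs and 0.446%, 0.336% and 0.974% of ECs. These shares depend on depth, in the Pdgfra-GFP library a median of 8065 UMIs in SCs, 3608 in dpMSCs and 6227 in mpMSCs. With each cell thinned to 2000 UMIs they were 36.4%, 23.1% and 17.7% of SCs and 28.3%, 29.9% and 21.6% of dpMSCs. In mpMSCs they were then 7.84%, 14.3% and 15.8%.

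Of all Tnfsf11 UMIs in cells, dpMSCs supplied 83.8%, 83.5% and 57.4%, against 31.4%, 34.6% and 37.6% of the cells. In the Pdgfra-GFP library another 22.3% came from mpMSCs and 5.58% from SCs. The numerous dpMSCs thus held most of the transcripts, while SCs, at 1.65% of the cells of that library, had a similar CPM. Shares of cells depend on the tissue taken, the depletion or sort and the gates.

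**Figure D1:**
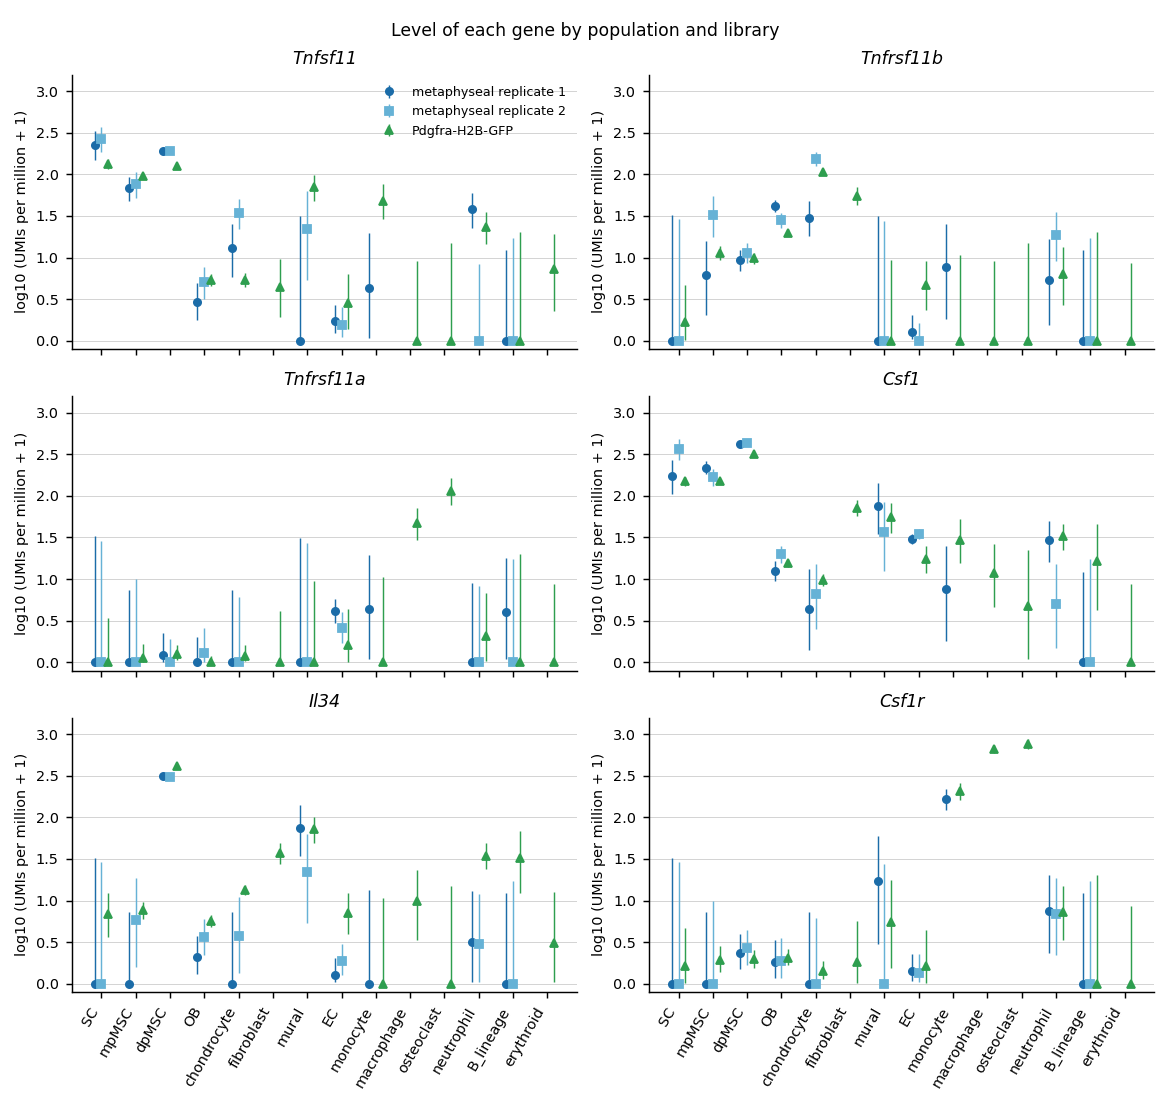
Level of each of the 6 genes in 14 populations, as log10 of CPM plus 1, for each library with at least 10 cells of a population. Points are libraries and bars are exact 95% Poisson intervals. Tnfsf11 and Csf1 are high in SCs, mpMSCs and dpMSCs, Il34 in dpMSCs, Tnfrsf11b in chondrocytes and fibroblasts, and Csf1r and Tnfrsf11a in macrophages and osteoclasts.

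Summed counts per library and population were compared with edgeR's quasi-likelihood test, with the library as a block and Benjamini-Hochberg adjustment over 11885 genes. Fitted fold changes are on a scale set by TMM factors and are not ratios of the CPM values. These factors were 0.585 to 0.729 in OBs, 0.788 to 0.911 in chondrocytes and 1.10 to 1.36 in SCs, mpMSCs, dpMSCs and ECs, so that fitted values for OBs lie above their CPM. With sums scaled to total counts instead, an alternative chosen after seeing the data, the median log2 difference of all genes was -0.80 in OBs minus mpMSCs, -0.43 in chondrocytes minus mpMSCs and 0.92 in dpMSCs minus OBs, against -0.05, -0.01 and 0.17. Of the genes called, 9.19%, 23.2% and 85.8% were then higher, against 46.9%, 49.4% and 57.6%. Between SCs and mpMSCs, the class that scored next highest in SCs, none of the 6 genes passed the adjusted threshold of 0.05, where 4.51% of all genes did. An unadjusted p under 0.05 was reached by 1 of the 6 and by 1750 of all 11885 genes. DESeq2 called 0 of the 6 and 397 of all genes. Tnfsf11 was 0.98 ± 0.48 higher on the log2 scale in SCs (SE, 95% interval -0.0098 to 1.97, unadjusted p = 0.0521), with the same direction in 3 of 3 libraries and an adjusted p of 0.349. Without the Pdgfra-GFP library the difference was 1.61 (adjusted p = 0.041), and without the filter on low counts it was 1.01 (adjusted p = 0.00202). The call thus changed with the genes and libraries in the fit.

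In dpMSCs against mpMSCs, Tnfsf11 was 0.98 ± 0.41 higher on the log2 scale in 3 of 3 libraries, with an adjusted p of 0.0833. It passed with the stricter gate (adjusted p = 0.0288), with cells of at least 500 genes (adjusted p = 0.0375), without the low count filter (adjusted p = 2.77e-05) and without the Pdgfra-GFP library (1.39, adjusted p = 9.22e-05). Over all 13 alternatives this difference ran from log2 0.76 to 1.39, and the highest adjusted p was 0.444. OBs held 1.90, 4.05 and 4.39 CPM. This was lower than in mpMSCs (log2 -3.63 ± 0.51, adjusted p = 3.97e-06, 3 of 3 libraries) and lower than in dpMSCs (dpMSC minus OB log2 4.61 ± 0.48, 24.4-fold, adjusted p = 1.14e-08, 3 of 3 libraries). On the CPM scale the dpMSC level was 99.5, 46.4 and 28.4 times that of OBs, and with total count scaling the fitted difference was 5.40 (adjusted p = 1.51e-09). In chondrocytes the values were 11.95, 33.2 and 4.395 CPM, lower than in mpMSCs by log2 -2.84 ± 0.58 (adjusted p = 0.000381, 3 of 3 libraries). That call was lost with the DESeq2 Wald test (-1.90, adjusted p = 0.108) and without the Pdgfra-GFP library (-1.21, adjusted p = 0.0575). ECs were lower by log2 -6.69 ± 0.70 (adjusted p = 1.60e-08, 3 of 3 libraries).

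Single cells carried much of the Tnfsf11 in small populations. In metaphyseal replicate 1, 10 of the 26 UMIs of SCs were in 1 of 11 cells, and 162 CPM remained without it. In metaphyseal replicate 2, hypertrophic chondrocytes, gated by Col10a1, Ihh and Panx3, had 24 UMIs in 4 of 17 cells, and 1 cell held 12 of them. Among neutrophils of metaphyseal replicate 1, 13 of 17 UMIs were in 1 cell, and among monocytes of the Pdgfra-GFP library 10 of 18. Mural cells of that library, the pericytes and smooth muscle cells around vessels, had 30 UMIs in 15 of 75 cells, with at most 6 in 1 cell. When each cell was thinned to 2000 UMIs and shallower cells were left out, 2.703% of them kept a Tnfsf11 UMI, against 21.6% of dpMSCs, 15.8% of mpMSCs and 17.7% of SCs in the same library.

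Tnfrsf11b, encoding the decoy receptor OPG, was higher in chondrocytes than in mpMSCs and dpMSCs in each library. It was also higher than in SCs in metaphyseal replicate 2 and the Pdgfra-GFP library. Chondrocytes held 29.0, 152 and 106 CPM. The middle value leaned on 1 cell with 58 of 110 UMIs, and without it the level was 73.9 CPM. OBs held 40.9, 26.9 and 18.9 CPM, with 32 of the 151 UMIs of metaphyseal replicate 1 in 1 cell, and the value of the Pdgfra-GFP library lay below the 33.1 CPM of its near-empty barcodes. In mpMSCs the values were 5.12, 31.5 and 10.4 CPM, the second of them from 13 UMIs of which 10 were in 1 cell, and 7.50 CPM remained without that cell. The dpMSCs held 8.33, 10.3 and 8.77 CPM. All dpMSC values, and the mpMSC values except that of metaphyseal replicate 2, also lay below near-empty barcodes (14.9, 14.2 and 33.1 CPM). Near-empty barcodes give the make-up of free RNA, not its amount in a cell. ECs held 1.32 ± 2.04 CPM (SD, n = 3).

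SCs gave 1 Tnfrsf11b UMI in 211 cells. Metaphyseal replicates 1 and 2 had 0 of 116337 and 0 of 132199 UMIs, which allows up to 25.8 and 22.7 CPM. In metaphyseal replicate 1 this limit lies above the mpMSC level, so that a difference was not detectable at this depth. Chondrocytes stood at 29.0 CPM there, but at 22.5 CPM, below the limit, without the cell with the most UMIs. In metaphyseal replicate 2 the mpMSC level of 31.5 CPM lies above the limit, but the 7.50 CPM left without 1 cell lies below it. In the Pdgfra-GFP library the single UMI corresponds to 0.654 CPM (95% interval 0.0166 to 3.64), below the 10.4 CPM of mpMSCs (8.34 to 12.8). In the fit over all libraries, Tnfrsf11b was lower in SCs than in mpMSCs by log2 -4.32 ± 1.62 with an adjusted p of 0.162 (0.000237 without the filter on low counts).

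Against mpMSCs, Tnfrsf11b was higher in chondrocytes by log2 3.39 ± 0.49 (10.5-fold, adjusted p = 7.97e-06, 3 of 3 libraries) and higher in OBs by 1.94 ± 0.50 (3.83-fold, adjusted p = 0.00392, 3 of 3 libraries on the TMM scale). On the CPM scale the OB level was 7.98 times that of mpMSCs in metaphyseal replicate 1 and 1.825 times in the Pdgfra-GFP library, but 0.854 times in metaphyseal replicate 2. With total count scaling the fitted difference was 1.16 (adjusted p = 0.0476). The OB call was lost without the block (adjusted p = 0.0579), without metaphyseal replicate 1 (1.38, adjusted p = 0.0758) and with DESeq2 (1.79, adjusted p = 0.198). It was lower in dpMSCs than in OBs by log2 -2.35 ± 0.40 (adjusted p = 2.86e-05, 3 of 3 libraries). Between dpMSCs and mpMSCs it differed by -0.42 (95% interval -1.504 to 0.67, adjusted p = 0.621), a difference that was within the spread of the libraries.

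The level was uneven within the cartilage and bone lineages. In the Pdgfra-GFP library, superficial chondrocytes, gated by Prg4, Cilp and Cilp2, held 532 Tnfrsf11b UMIs or 211 CPM, hypertrophic chondrocytes 33.7 CPM, and at 2000 UMIs per cell 28.2% and 7.27% of the cells had a UMI. Superficial chondrocytes reached 10 cells in that library alone and have no replicate check. Hypertrophic chondrocytes held 8, 98 and 70 Tnfrsf11b UMIs from 21, 17 and 165 cells, with 33.7 to 301 CPM over 3 libraries. The highest value, of metaphyseal replicate 2, included 1 cell with 58 of the 98 UMIs. The other chondrocytes held 9, 12 and 969 UMIs from 16, 19 and 1141 cells, with 26.6 to 95.1 CPM. Hypertrophic cells stood above them in both metaphyseal libraries, on few cells, and below them in the Pdgfra-GFP library. Late OBs, which carry the osteocyte genes Dmp1, Mepe, Sost and Phex, held 18, 28 and 25 UMIs from only 8, 9 and 22 cells, or 176.5, 459.9 and 159.7 CPM, with 14, 17 and 10 of the UMIs in 1 cell. Fibroblasts, present with at least 10 cells in the Pdgfra-GFP library alone, held 53.8 CPM (41.4 to 68.7), and 35 of 194 cells had a UMI.

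**Figure D2:**
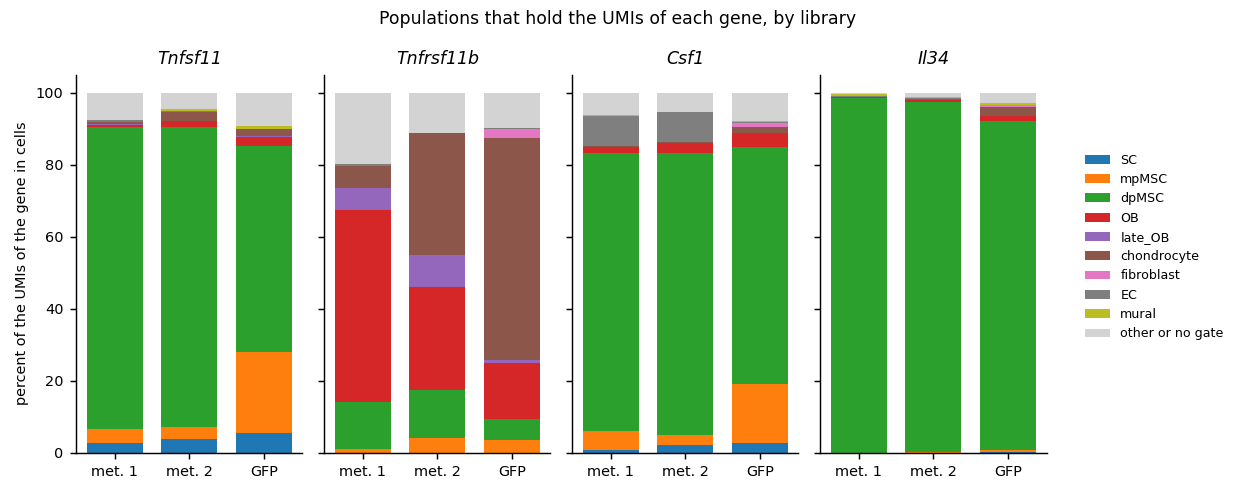
Share of the UMIs of Tnfsf11, Tnfrsf11b, Csf1 and Il34 in cells that each population held, in percent, by library (met. 1 and 2, metaphyseal replicates; GFP, Pdgfra-GFP). The dpMSCs hold most Tnfsf11, Csf1 and Il34 UMIs in each library, whereas Tnfrsf11b comes mainly from OBs in metaphyseal replicate 1 (53.2%) and from chondrocytes in the Pdgfra-GFP library (61.5%).

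The ratio of Tnfsf11 to Tnfrsf11b UMIs put the stromal types on opposite sides of parity. UMIs count captured transcript ends and are not divided by length, and capture can differ between transcripts, so the ratio compares cell types and is no measure of protein. SCs held 26 Tnfsf11 and 0 Tnfrsf11b UMIs, 35 and 0, and 203 and 1. Taking 3 counts for a count of 0, the ratio was at least 8.67 and at least 11.7 in the metaphyseal libraries, and it was 203 (95% interval 36.0 to 8057) in the Pdgfra-GFP library. Exact 95% lower limits, which also cover the error of the Tnfsf11 counts, were 6.56 and 8.997 in the metaphyseal libraries. In dpMSCs the ratios were 22.6, 18.2 and 14.2, and in mpMSCs 13, 2.38 and 9.01. Every one of these values was above 1.

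OBs held 7 Tnfsf11 and 151 Tnfrsf11b UMIs, 14 and 93, and 92 and 397, which gives ratios of 0.0464, 0.151 and 0.232. In the Pdgfra-GFP library Tnfsf11 stood at 4.39 CPM in OBs, 6.23 in erythroid cells (3 UMIs) and 1.84 in ECs. It stood at 4.395 CPM in chondrocytes, 1.98 in their superficial cells and 3.36 in fibroblasts of that library. How much of these Tnfsf11 counts is free RNA was not tested. Differences among the low ratios of these cells are therefore not read as differences in Tnfsf11. Chondrocytes had ratios of 0.412, 0.218 and 0.0414. Their superficial cells stood lowest, with 5 Tnfsf11 and 532 Tnfrsf11b UMIs in the Pdgfra-GFP library (0.00940). Hypertrophic chondrocytes stood higher, at 0.625, 0.245 and 0.443, and the other chondrocytes of the Pdgfra-GFP library at 0.0299. Fibroblasts (4 and 64 UMIs) and late OBs (7 and 25) of the Pdgfra-GFP library had ratios of 0.0625 and 0.280. All values of these types were below 1. In metaphyseal replicate 1 the intervals of chondrocytes, and of their hypertrophic and other cells, reached above 1.

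On the log2 scale, the mean ratio was 4.17 ± 0.34 in dpMSCs (SD, n = 3), 2.71 ± 1.29 in mpMSCs, -2.69 ± 1.71 in chondrocytes and -3.09 ± 1.20 in OBs. The difference between dpMSCs and OBs was 7.26 ± 1.53 and lay between 5.94 and 8.93 in each library. Between mpMSCs and OBs it was 5.80 ± 2.12, and between dpMSCs and chondrocytes 6.86 ± 1.38. An exact two-sided sign-flip permutation test over 3 libraries gave p = 0.25 for each of them, the smallest p that 3 libraries allow, so this design cannot reach 0.05. The dpMSC ratio was above the mpMSC ratio by 1.46 ± 1.28 in 3 of 3 libraries (exact p = 0.25). With the cell holding the most Tnfrsf11b UMIs left out of each sum, it was 0.55 ± 0.29. OBs and chondrocytes differed by -0.40 ± 2.82 (exact p = 0.75) and not in one direction. Over all stromal cells the ratio was 4.07, 3.09 and 1.42, and the Pdgfra-GFP library, with 1679 chondrocytes among its stromal cells, was lowest.

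**Figure D3:**
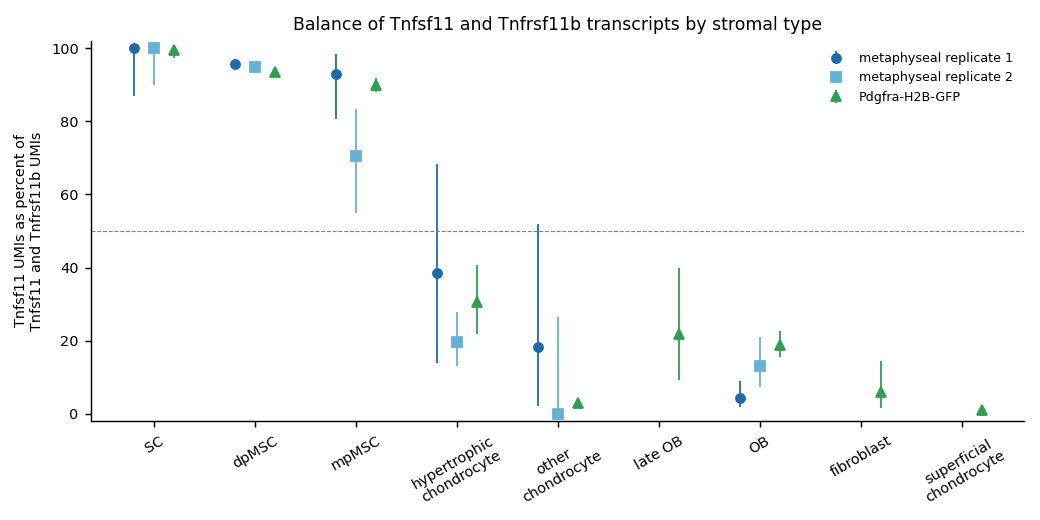
Tnfsf11 UMIs as percent of the Tnfsf11 and Tnfrsf11b UMIs of a stromal type, by library, with exact 95% binomial intervals that cover counting error only. Points for SCs, dpMSCs and mpMSCs lie at 70.5% or above, and those for chondrocyte types, OBs, late OBs and fibroblasts between 0.0% and 38.5%.

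Both transcripts were seldom caught in the same cell. At 2000 UMIs per cell, 25 of 5405 dpMSCs held both over all libraries, where independent capture would give 21.2. In mpMSCs the count was 4 of 1395 against 4.16, and in chondrocytes 2 of 1748 against 2.48. No SC of 205 and no OB of 2149 held both at this depth, where independent capture would give 0.190 and 0.907 cells. With all UMIs kept, 103 dpMSCs held both against 82.4, and 17 OBs against 14.9. Deeper cells raise such counts for both genes, so no relation is read from them.

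Csf1 was the most abundant of the 6 genes, with 12780 UMIs in cells, and marked the same stromal populations as Tnfsf11. The dpMSCs held 421, 434 and 316 CPM, more than the 217, 167 and 150 CPM of mpMSCs in each library. SCs held 172, 363 and 149 CPM from 20, 48 and 228 UMIs, values on both sides of those of mpMSCs. The level in OBs was 15.1 ± 3.74 CPM (SD, n = 3) and that in chondrocytes 5.91 ± 2.71. Fibroblasts, with 70.6 CPM in 1 library, and mural cells, with 54.7 ± 19.1, lay between. The 17 basophils or mast cells of the Pdgfra-GFP library held 202.6 CPM from 22 UMIs. ECs held 26.5 ± 8.91 CPM, and among them the bone marrow ECs held 39.99, 45.7 and 14.97 CPM.

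Csf1 rose from mpMSCs to dpMSCs by log2 1.14 ± 0.29 (2.20-fold, adjusted p = 0.00364, 3 of 3 libraries), a call lost without the block (adjusted p = 0.0650), without metaphyseal replicate 1 (adjusted p = 0.0661) and with DESeq2 (1.08, adjusted p = 0.125). It was lower than in mpMSCs in OBs by log2 -2.78 ± 0.32 (adjusted p = 1.17e-07), in chondrocytes by -3.98 ± 0.39 (adjusted p = 5.49e-09) and in ECs by -2.70 ± 0.32 (adjusted p = 5.53e-08), each in 3 of 3 libraries. Between SCs and mpMSCs it differed by 0.09 (95% interval -0.59 to 0.77, adjusted p = 0.975). Without metaphyseal replicate 2, whose 13 SCs had 18 of 48 UMIs in 1 cell, the difference was -0.23.

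Il34 was the gene of the 6 most tied to 1 population. The dpMSCs held 1375, 1278 and 6909 UMIs, which is 98.5%, 97.1% and 91.2% of the Il34 UMIs in cells. Their level was 310, 307 and 412 CPM. In mpMSCs 0, 2 and 58 UMIs gave at most 6.69 CPM, and in SCs 0, 0 and 9 UMIs at most 5.89. Il34 was higher in dpMSCs than in mpMSCs by log2 6.61 ± 0.48 (97.4-fold, adjusted p = 2.45e-10) and higher than in OBs by 6.26 ± 0.40 (76.9-fold, adjusted p = 9.73e-13), both in 3 of 3 libraries. Under all 13 alternatives the difference to mpMSCs lay between 5.91 and 7.18 and passed the threshold.

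Mural cells held 73.7, 21.3 and 70.8 CPM of Il34 and fibroblasts of the Pdgfra-GFP library 36.2 CPM. Chondrocytes held 0.0, 2.77 and 12.5 CPM, and their difference to mpMSCs (log2 1.25 ± 0.53, adjusted p = 0.0724) was -0.03 without the Pdgfra-GFP library, and it passed with the stricter gate (adjusted p = 0.0499), with cells of at least 500 genes (adjusted p = 0.0491) and without the low count filter (adjusted p = 0.00506). Of the Csf1 and Il34 UMIs together, Il34 made up 42.4%, 41.4% and 56.6% in dpMSCs but 0.0%, 2.82% and 4.27% in mpMSCs. Single dpMSCs often held both CSF1R ligands. At 2000 UMIs per cell, 23.4%, 24.1% and 25% of dpMSCs had a UMI of each, close to the 22.1%, 24.0% and 24.2% that independent capture would give. Tnfsf11 and Csf1 were met together in 16.0%, 17.8% and 10.6% of dpMSCs, against 15.2%, 16.8% and 10.0%.

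**Figure D4:**
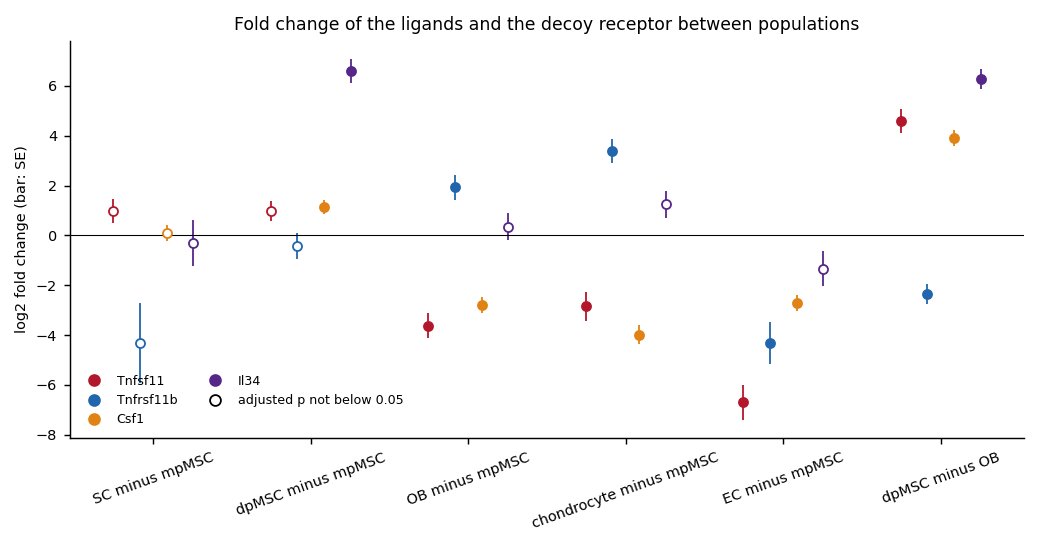
Log2 fold change of Tnfsf11, Tnfrsf11b, Csf1 and Il34 between summed populations in edgeR's quasi-likelihood fit, with bars of 1 SE. Filled points have an adjusted p below 0.05. Tnfsf11 and Tnfrsf11b lie on opposite sides of 0 for OBs and chondrocytes against mpMSCs and for dpMSCs against OBs, and Il34 stands apart at 6.61 and 6.26 in the comparisons of dpMSCs.

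Csf1r was found mainly in haematopoietic cells, of which the libraries held few after depletion and sort, and Tnfrsf11a in osteoclasts, macrophages and ECs. The Csf1r gene lies on chromosome 18. Csf1r was carried by 21 of 21 osteoclasts (763 CPM, 95% interval 661 to 876) and 66 of 70 macrophages (660 CPM, 588 to 739) of the Pdgfra-GFP library. Monocytes held 166 and 204 CPM in metaphyseal replicate 1 and the Pdgfra-GFP library. In SCs, mpMSCs, dpMSCs, OBs, chondrocytes and ECs the mean level was between 0.135 and 1.33 CPM, under the 2.28 to 7.67 CPM of near-empty barcodes. None of the 6 comparisons called Csf1r.

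Tnfrsf11a, encoding RANK, had only 115 UMIs in all cells. Osteoclasts held 30 of them (113 CPM, 76.4 to 162, in 17 of 21 cells) and macrophages 21 (45.9 CPM, 28.4 to 70.2, in 15 of 70 cells). In the Pdgfra-GFP library they supplied 39.5% and 27.6% of the gene's UMIs, whereas ECs supplied 81.5% and 75% of the 27 and 12 UMIs of metaphyseal replicates 1 and 2. No UMI was found in 211 SCs, and mpMSCs, dpMSCs, OBs and chondrocytes had 1, 5, 1 and 3.

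ECs held 32 Tnfrsf11a UMIs in 32 of 2322 cells (3.14, 1.57 and 0.613 CPM), more than mpMSCs by log2 3.32 ± 1.07 (adjusted p = 0.0150, 3 of 3 libraries). The mpMSCs had 0, 0 and 1 UMIs. In the metaphyseal libraries their count of 0 allows up to 5.12 and 7.27 CPM, above the EC levels. In the Pdgfra-GFP library ECs also had 1 UMI. The direction was thus not detectable in any single library. The call was lost without metaphyseal replicate 1 (adjusted p = 0.189) and with DESeq2 (adjusted p = 0.483), and near-empty barcodes held 0.931, 0.913 and 1.81 CPM. In the same ECs Csf1r was at 0.429, 0.349 and 0.613 CPM, and in macrophages it was far above Tnfrsf11a. Whether the Tnfrsf11a UMIs of ECs came from free RNA was not tested. Of the 32 UMIs, bone marrow ECs held 16 and metaphyseal ECs 9. At 2000 UMIs per cell 0.347% of ECs had a UMI. As macrophages and fibroblasts reached 10 cells in the Pdgfra-GFP library alone, their differences to mpMSCs could not be tested.

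Other genes around the 2 axes were examined as lists chosen with earlier results of these data known. Of 11885 genes, 25.4% passed between dpMSCs and mpMSCs, 34.9% between OBs and mpMSCs, 34.2% between chondrocytes and mpMSCs, 41.6% between ECs and mpMSCs and 54.5% between dpMSCs and OBs (31.4% higher and 23.1% lower in dpMSCs). Of the 6 members, 2, 3, 3, 4 and 4 passed. These counts of 6 are too small to be read against the background. Between SCs and mpMSCs 4.51% of the 11885 genes passed, 1750 had an unadjusted p under 0.05 and DESeq2 called 397.

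The regulators of RANKL and OPG in stroma included hormone, cytokine, prostaglandin and Wnt receptors. They also included the secreted factors Il6 and Sema3a and the transcription factors Runx2, Vdr, Esr1 and Rbpj. Of 20 tested, 8 were higher and 5 lower in dpMSCs than in mpMSCs. The interleukin-1 receptor Il1r1 was higher by log2 2.60 and the cytokine Il6 by 2.93. Il6 was low, at 3.752 ± 1.353 CPM in dpMSCs against 0.1153 ± 0.1996 in mpMSCs (edgeR adjusted p = 0.03456). Sema3a, a semaphorin known to restrain osteoclasts, was lower by -2.92. In OBs 1 was higher and 11 lower, with the prostaglandin receptor Ptger4 at -3.14, the oestrogen receptor Esr1 at -2.69 and Il1r1 at -2.04. The list's median in OBs was -0.61, against -0.05 for all genes. In chondrocytes 2 were higher and 11 lower, among them Sema3a at -3.78, Lifr at -3.68 and Esr1 at -3.08, with a median of -0.90 against -0.01. Between dpMSCs and OBs 11 were higher and 6 lower, with Il1r1 at 4.63, Ptger4 at 3.81 and Ptger2 at 3.67 and a median of 1.40 against 0.17. Ptger2 was low there, at 5.33 ± 0.432 CPM in dpMSCs against 0.321 ± 0.476 in OBs. ECs had 8 higher and 8 lower, and the parathyroid hormone receptor Pth1r (-6.32), Runx2 (-6.09) and Vdr (-5.88) were lowest. Between SCs and mpMSCs 1 of 20 passed, the leukaemia inhibitory factor receptor Lifr at -1.41, while 9 had an unadjusted p under 0.05 and DESeq2 called 0.

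The intracellular RANK pathway is shared by many cell types, and all 19 genes of its list could be tested. Between SCs and mpMSCs 0 of 19 passed in edgeR, 2 had an unadjusted p under 0.05 and DESeq2 called 0. In dpMSCs 6 were higher and 3 lower, with the non-canonical NF-kappaB genes Map3k14 (log2 2.27) and Relb (1.44) above mpMSCs and Plcg2 (-3.36) below. OBs had 3 higher and 2 lower, with Fos at 2.03, Nfatc1 at 1.58 and the integrin Itgb3 at -2.18. Chondrocytes had 3 higher and 3 lower, with Nfatc1 at 3.53 (52.7 ± 19.3 CPM against 3.84 ± 1.85), Fos at 2.84 and Itgb3 at -3.26. ECs had 7 higher and 4 lower, with Sirpa at 3.83 and Fcer1g at 3.76. Against OBs, dpMSCs had 6 higher and 4 lower, with Map3k14 at 3.198, Relb at 2.005 and Plcg2 at -4.68.

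Sheddases release RANKL and CSF1 from the membrane. Of 6 genes tested, which include ADAM17 partners beside sheddases, SCs had 2 higher than mpMSCs, both in 3 of 3 libraries. They were the membrane protease Mmp14 (log2 1.41 ± 0.33, adjusted p = 0.0104) and the ADAM17 partner Rhbdf2 (3.29 ± 0.73, adjusted p = 0.00706). Rhbdf2 was low, at 16.0 ± 12.35 CPM against 1.45 ± 1.77. Of all genes, 2.18% were called higher there and 2.33% lower. In dpMSCs 1 was higher and 2 lower, with Mmp14 at -1.20, in OBs 2 were lower, and in chondrocytes 2 were higher and 3 lower. ECs had 2 higher and 1 lower, and dpMSCs had 2 higher and 1 lower than OBs.

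Among 4 tested binding partners of the members, syndecan-1 (Sdc1), which binds IL-34, was higher than in mpMSCs in dpMSCs by log2 1.87 ± 0.26 (288 ± 5.90 CPM against 81.8 ± 10.9) and in SCs by 1.59 ± 0.29, and lower in OBs by -1.88 and in ECs by -2.81. Ptprz1, another IL-34 receptor, was lower in chondrocytes (-3.52) and ECs (-6.21). Lgr4, which binds RANKL, was higher in OBs than in mpMSCs by 1.43 on the TMM scale. Its CPM levels lay closer, at 26.9 ± 5.20 against 19.9 ± 5.78. Tnfsf10, encoding TRAIL, a ligand of OPG, was higher in ECs by 7.48 ± 0.51, at 49.6 ± 19.6 CPM against 0.0384 ± 0.0665.

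Of 8 other myeloid growth factor and receptor genes tested, 3 were higher in dpMSCs than in mpMSCs, namely the chemokine Cx3cl1 (log2 3.71, 50.3 ± 15.5 CPM against 3.22 ± 2.03), Csf3r (2.50) and the growth factor Flt3l (0.99). Csf3r was low, at 2.983 ± 2.407 CPM in dpMSCs against 0.1153 ± 0.1996 in mpMSCs (edgeR adjusted p = 0.03793). OBs had 3 lower, chondrocytes 1 higher and 1 lower, and ECs 1 of each, with the receptor subunit Csf2rb at 6.49 in ECs. Against OBs, 5 were higher in dpMSCs. In SCs against mpMSCs 0 of 8 passed in edgeR, 0 had an unadjusted p under 0.05 and DESeq2 called 0.

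Of 8 other TNF superfamily ligands tested, Eda and Tnfsf12 were higher in dpMSCs than in mpMSCs (log2 1.72 and 0.95) and lower in OBs (-2.18 and -1.17) and chondrocytes (-2.02 and -1.78), which also had Tnfsf9 higher (3.89). Tnfsf9 was low, at 5.37 ± 3.50 CPM in chondrocytes against 0.269 ± 0.466 in mpMSCs. ECs had 1 higher and 2 lower, and dpMSCs had 3 higher than OBs. In SCs 0 of 8 passed in edgeR, 1 had an unadjusted p under 0.05 and DESeq2 called 0. Of 14 other TNF receptor superfamily genes, SCs had Tnfrsf21, the death receptor DR6, higher by 1.77 ± 0.35 (adjusted p = 0.00264) and Tnfrsf19 lower by -2.48 ± 0.36 (adjusted p = 5.39e-05), with 2 higher and 1 lower in all. In dpMSCs 4 were higher, led by Tnfrsf21 (1.85), Tnfrsf1b (1.12) and Fas (1.12). OBs had 1 higher and 4 lower, chondrocytes 6 higher and 4 lower, and ECs 3 higher and 2 lower, with Cd40 at 5.95. Against OBs, dpMSCs had 6 higher and 2 lower.

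The genes whose levels ran most like each member over 36 sums of a library and population were ranked by Spearman's rho among 6108 genes. These sums share their libraries and depth, and the values are a description. Tnfsf11 ran with Podnl1 (0.88), the collagenase gene Mmp13 (0.87) and Epdr1 (0.87). Podnl1 stood at 381 ± 95.9 CPM in SCs, 178 ± 28.9 in dpMSCs, 153 ± 32.2 in mpMSCs and 5.94 ± 0.246 in OBs. Tnfrsf11b ran with Slc35a2, Pcsk6 and Ugdh (each 0.78), and Pcsk6, a proprotein convertase gene, stood at 175 ± 41.5 CPM in OBs and 82.7 ± 25.6 in chondrocytes. Csf1 ran with Wls (0.85), Pdlim2 (0.84) and Cyp1b1 (0.84), and Il34 with Rarres2 (0.82), C1ra (0.82) and Ptx3 (0.78), of which C1ra, a complement gene, stood at 299.5 ± 24.2 CPM in dpMSCs and 36.5 ± 9.28 in mpMSCs. Csf1r ran with Mcemp1 (0.78), Mpeg1 (0.77) and Cd300c2 (0.76). For Tnfrsf11a the highest values, for Rnf213, Nfkbia and Fam167b, were 0.55 to 0.57.

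Free RNA adds a background to these values, and CPM in near-empty barcodes gives its make-up, not its amount in a cell. Near-empty barcodes held Tnfsf11 at 47.9, 45.7 and 39.3 CPM, Tnfrsf11b at 14.9, 14.2 and 33.1, Csf1 at 124, 134 and 87.7 and Il34 at 57.7, 64.4 and 73.6. Background in cells was lower. ECs, at a median depth of 5798 UMIs, had a Tnfsf11 UMI in 0.474% of cells and a Tnfrsf11b UMI in 0.345%, against 39.8% and 3.67% of dpMSCs at 4054 UMIs. Among 75 erythroid cells, at 8681 UMIs, 5.33% had a Tnfsf11 UMI and none a Tnfrsf11b UMI, which allows up to 4.12 CPM.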

How the data were processed

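Droplet single cell RNA counts of 3 libraries were analysed. The matrices deposited by the authors hold raw UMI counts per gene and barcode for an unfiltered barcode whitelist. Per the submitters' notes and the study's methods, reads were processed with fastp 0.20 and STAR 2.7.3a (STARsolo) against mm10 with Gencode genes and an H2B-GFP sequence. Cells with at least 1500 genes (metaphyseal) or 1000 genes (Pdgfra-GFP), at most 15% mitochondrial and 30% ribosomal UMIs were kept, giving 2389, 2011 and 11319 cells with 19243507, 16617684 and 76054094 UMIs. The study's empty droplet caller was not used. Cells were assigned to the class with the highest mean scaled marker level (at least 0.3, margin at least 0.05), which left 1181 cells in no class. Of SCs 18.0%, of fibroblasts 22.7% and of dpMSCs 1.84% lay within 0.05 of a cut. The thresholds were set after seeing cell numbers and marker levels. Scrublet (scanpy 1.11.5) called 25, 18 and 195 doublets (1.05%, 0.895% and 1.72% of cells, where 1.91%, 1.61% and 9.06% were expected), which were kept. The members and gene lists were chosen with earlier results of these data known.

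UMIs were summed per library and population of at least 10 cells and fitted in R 4.3.3 with edgeR 4.0.16 (quasi-likelihood test, TMM scaling, Benjamini-Hochberg adjustment, threshold 0.05), with the library as a block since all populations of a library were captured from 1 suspension. Deviations of populations of a library from their means correlated with r of 0.088 to 0.661. The fit was tested on counts simulated from its own fitted means and spread. In them 200 genes with ample counts were raised 4-fold, and 98.5% were recovered for SC minus mpMSC. Lowered genes and genes with few counts were not tested in this way. DESeq2 1.42.0 and scaling to total counts were alternatives. Intervals of fold changes use the t distribution with the degrees of freedom of the quasi-likelihood fit. Other intervals are exact (Poisson or binomial, 95%) and cover counting error only, and a count of 0 was given a limit of 3 counts. Named genes are the 6 members, up to 3 genes of each list and comparison with the largest change in the same direction in every library, and the 3 genes most like each member over sums, on log2 (CPM + 10), among genes of at least 20 CPM. Fibroblasts and macrophages reached 10 cells in 1 library and were not tested.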

Additional observations from a re-analysis of the deposited data

Results flagged for a closer look

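The direction of 3 differences was opposite in the Pdgfra-GFP library and in both metaphyseal libraries, which was not tested. The log2 ratio of Tnfsf11 to Tnfrsf11b in OBs minus that in chondrocytes was 2.49 in the Pdgfra-GFP library and -3.15 and -0.536 in metaphyseal replicates 1 and 2. Csf1r in ECs minus mpMSCs differed by -0.31 CPM in the Pdgfra-GFP library and by 0.429 and 0.349 CPM in the metaphyseal libraries. Csf1r in dpMSCs minus OBs differed by -0.0947 CPM against 0.538 and 0.813 CPM. These Csf1r values rest on 3, 2 and 1 UMIs in ECs, 0, 0 and 8 in mpMSCs, 6, 7 and 16 in dpMSCs and 3, 3 and 22 in OBs (metaphyseal replicates 1 and 2, then Pdgfra-GFP).

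The 1181 cells that no gate took held UMIs of all 6 genes and entered no comparison. Over all libraries they held Tnfsf11 at 45.0 CPM (393 UMIs), Tnfrsf11b at 37.4 CPM (327 UMIs), Tnfrsf11a at 1.83 CPM (16 UMIs), Csf1 at 92.6 CPM (809 UMIs), Il34 at 23.5 CPM (205 UMIs) and Csf1r at 9.27 CPM (81 UMIs).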

How the results depend on the processing

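Of 450 values of the members' log2 fold changes under alternatives, 413 kept direction and call, 11 gained a call, 10 lost one and 16 reversed, and the cause was not tested. The reversed values were small or rested on few UMIs. For SCs minus mpMSCs they were Tnfrsf11a 1.37 and Csf1r 0.23 (DESeq2 Wald test), Csf1 (-0.228 to 0.346 when 1 library was left out, lowest without metaphyseal replicate 2) and Csf1r (-0.551 to 0.0110, highest without Pdgfra-GFP). For dpMSCs minus mpMSCs they were Tnfrsf11a -0.39 (Wald) and Csf1r -0.00878 (clusters in place of gates), for OBs minus mpMSCs Tnfrsf11a 0.23 and Il34 -0.21 (clusters) and Il34 -0.0326 (doublets removed). Leaving out 1 library, Il34 ran from -0.0338 to 1.35 and Csf1r from -0.673 to 0.0135 in chondrocytes minus mpMSCs, and Csf1r from -1.01 to 2.55 in ECs minus mpMSCs and from -0.777 to 0.147 in dpMSCs minus OBs, with the reversed value without Pdgfra-GFP each time. With clusters Tnfrsf11a was -0.18 in dpMSCs minus OBs. With total count scaling Il34 was -0.486 in OBs minus mpMSCs and Csf1r 0.268 in dpMSCs minus OBs.

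Without the replicate block (library), the number of genes called fell to 169 of the main 536 for SCs minus mpMSCs, 1620 of 3018 for dpMSCs, 2298 of 4152 for OBs and 2610 of 4065 for chondrocytes, and among the members Csf1 in dpMSCs and Tnfrsf11b in OBs, both against mpMSCs, lost their call and no other call changed. Without the filter on low counts Il34 was called lower in ECs than in mpMSCs (adjusted p = 0.0437). Leaving out 1 library gave 159 to 281, 1605 to 2676, 2434 to 3057 and 2687 to 3001, and no filter on low counts gave 916 for SCs. Of the genes called between SCs and mpMSCs, 48.3% were higher in SCs, against 60.2% with the Wald test and 60.7% with total count scaling, which called 7499 genes between OBs and mpMSCs. In SCs, Tnfsf11 made up 99.5% of both transcripts with clusters or sums of at least 25 cells and 99.2% when thinned. The Tnfsf11 level of SCs was 136 and 133 CPM with clusters and with at least 25 cells. Under both alternatives only the Pdgfra-GFP library gave a sum of SCs, and its main level was 133 CPM. No cluster of either metaphyseal library was named SC. Other levels that moved were Tnfsf11 in mpMSCs (97.1 CPM, clusters), Tnfsf11 in OBs (5.08, thinned), Csf1 in chondrocytes (11.8, thinned), Il34 in mpMSCs (10.2, thinned) and Csf1r in monocytes (231 with clusters, 226 without cycling cells). SCs minus mpMSCs could not be fitted with clusters or with at least 25 cells. Leaving out the cell with the most UMIs, chosen after seeing the data, gave log2 ratios of 3.68 in mpMSCs, 4.23 in dpMSCs, -2.90 in OBs and -2.20 in chondrocytes.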
